A study of Mus musculus with 2 samples.

Results

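Rab proteins are small GTPases that give each membrane compartment of the cell its identity. Loaded with GTP by exchange factors, a Rab protein sits in a membrane through its prenylated tail and recruits effectors that tether, move and fuse vesicles, and GTPase-activating proteins then switch it off. In macrophages, different Rab proteins act one after another on the phagosome as it matures toward the lysosome, and others control receptor recycling and secretion. Transcript levels of this family were compared between mouse peritoneal macrophages transfected with HDAC9 siRNA, aimed at a histone deacetylase of class IIa, and cells transfected with a control siRNA.

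The genes were taken by symbol: Rab followed by a number and, where present, a letter and a further digit, together with the Rab-like genes Rabl2, Rabl3 and Rabl6. This gave 62 of the 18193 genes that could be named on the arrays, read by 140 probe sets, and each gene was represented by its brightest probe set. Both samples were peritoneal macrophages of male C57BL/6 mice, transfected 48 h before RNA extraction, and by the labels they differed in the siRNA alone. There was 1 array per group. The sources used here give neither the age of the mice nor how many animals were behind each RNA. With no replicate there was no spread between cultures to measure a difference by, and no test was possible.

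Of the 62 Rab genes, 52 had a signal above background on at least 1 array, and none of these reached a 2-fold difference in either direction. Background here is a log2 signal of 6.34, the 95th percentile of 80 probe sets for olfactory and vomeronasal receptors, and lower signals were raised to it before ratios were taken. Over all 12090 genes above background, 1.81% were at least 2-fold different, with 1.44% higher and 0.372% lower on the HDAC9 siRNA array. At 1.5-fold, 0 Rab genes were higher and 2 were lower, Rab4a and Rab42, beside 7.8% and 2.79% of all genes. Without raising low signals, 5 of the 62 were past 2-fold, 4 of them below background on both arrays and the fifth Rab30, and 20.4% of all genes were. The log2 ratios of HDAC9 siRNA over control siRNA ran from -0.76 to 0.44 among the Rab genes, with a median of -0.04, and all genes above background had a median of 0.03.

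The only internal yardstick of error was the disagreement between probe sets of 1 gene. In the 5671 genes that had more than 1 probe set above background, a single probe set scattered by 0.29 on the log2 scale, or 1.22-fold. Of the 52 Rab genes, 42 lay within this scatter and 10 beyond it, 4 of them higher and 6 lower. Of the 4 higher genes, Rab17, Rab27b and Rab38 were within it after loess on mean signal (0.22, 0.23 and 0.16). After quantile normalization they were also within it (0.26, 0.23 and 0.17). Rabl2 and the 6 lower genes stayed beyond it under both. With the deposited scaling, 34.3% of all genes above background were beyond it. By 4 equal classes of mean signal, 46.0% of all genes were within it in the dimmest and 85.0% in the brightest. The brightest class held 24 of the 52 Rab genes, so 34.3% is not a share matched by signal. This yardstick leaves out any difference between cultures.

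**Figure D1:**
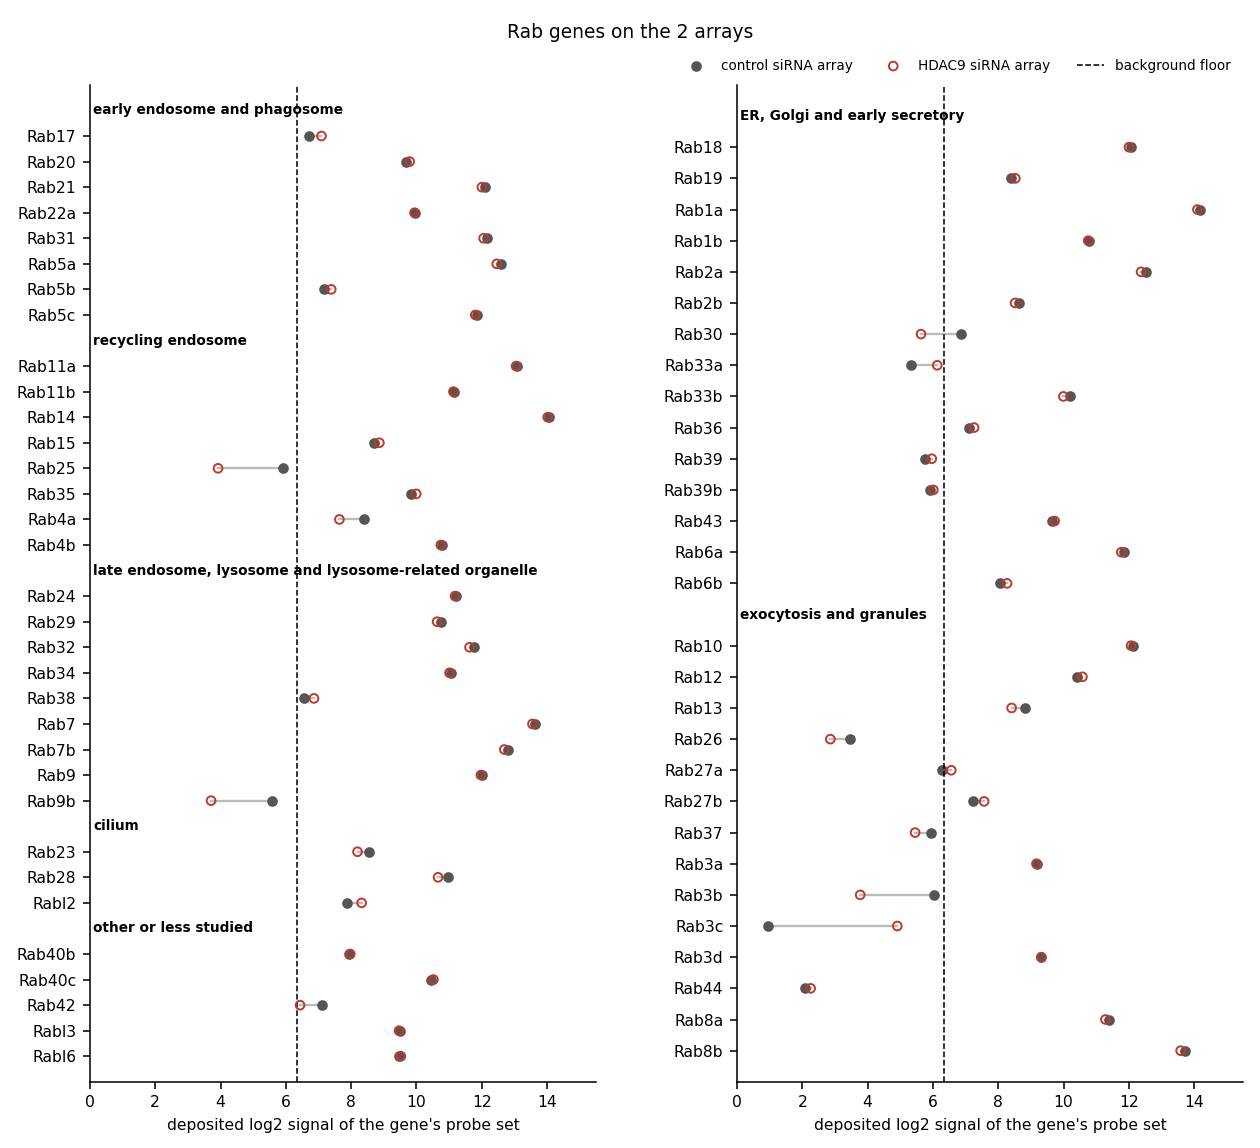
Deposited log2 signal of each of the 62 Rab genes on the control siRNA array (filled grey) and the HDAC9 siRNA array (open red), grouped by the compartment each protein is best known for; the dashed line is the background at 6.34. The pairs of points above the line lie close together, Rab4a being the widest such pair with both signals above it, and 10 genes lie below the line on both arrays. Signals of different probe sets cannot be ranked against each other.

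The siRNA target gave a weak check of the labels. The brighter Hdac9 probe set read 6.88 (log2) with control siRNA and 5.69 with HDAC9 siRNA, the latter below background, so Hdac9 was at least 1.46-fold lower. Its other probe set was below background on both. With the background raised to percentile 99, both Hdac9 signals were below it, giving a ratio of 0.00. Of 11 macrophage markers, 10 were above background, with log2 ratios from -0.46 to 0.46. Among them were the lysosomal glycoprotein gene Cd68 (14.46 and 14.40 on the control and HDAC9 siRNA arrays) and Csf1r (13.90 and 13.74), the receptor for macrophage colony-stimulating factor. Timd4, a marker of resident peritoneal macrophages, was below background on both. Gata6 (10.74 and 11.20) and Icam2 (6.97 and 7.37) of the same list were above it on both. Genes of other cells of the peritoneal wall were also present. All 6 fibroblast markers and all 8 mesothelial markers were above background, and their summed linear signals were 39317 and 53152 for the fibroblast list and 9273 and 10622 for the mesothelial list on the control and HDAC9 siRNA arrays. Of the 6 fibroblast markers, 5 had ratios above 0, with a list median of 0.51. Col1a1 was at 1.80 and Col3a1 at 1.46, while Pdgfra was at -0.10. Of the 8 mesothelial markers, 5 had ratios below 0, with a list median of -0.17. Msln was at -1.11 and Krt7 at -0.99, while Upk3b, which gave most of the sum, was at 0.24. Of the other lists, 3 of 7 T cell, 1 of 4 B cell, 2 of 4 neutrophil, 3 of 5 epithelial, 1 of 5 melanocyte and 0 of 5 mast cell markers were above background, and no marker was listed at 0. The summed linear signals of the T cell list were 1113 and 675. In such bulk RNA, fewer cells of a type and less RNA per cell cannot be told apart. Whether these other cells contributed to any Rab difference below was not tested.

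Reference sequence was available for the promoters of 51 of the 62 Rab genes, as 63 windows from 250 bases before to 50 after an annotated start (RefSeq, GRCm38.p6). A GC box (GGGCGG on either strand) stood in 43 of the 63 windows, 68.3%, and in 52.3% of the 18109 windows of genes on the arrays. The CCAAT box (CCAAT on either strand) stood in 42.9% of Rab windows and 37.4% of all. The core of the MEF2 site (CTAAAAATA, either strand), bound by transcription factors that class IIa deacetylases repress, stood in 0 Rab windows and in 0.342% of all. A match is only a match of letters, and its absence holds only for these windows. The motifs here and below were picked after the ratios and a wider motif search were seen. A share above that of all windows is thus no test of an excess.

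For Rab42, the Rab gene with the largest difference among those with a promoter entry, the 250 bases before the start (chr4:132303357-132303606, minus strand, GRCm38.p6) are shown with the GC box in capitals:
Rab42: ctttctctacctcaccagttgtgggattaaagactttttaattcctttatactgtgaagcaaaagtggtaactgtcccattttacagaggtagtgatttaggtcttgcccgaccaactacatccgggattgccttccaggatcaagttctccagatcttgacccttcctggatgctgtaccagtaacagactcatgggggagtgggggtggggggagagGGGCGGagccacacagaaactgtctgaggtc

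Interferon regulatory factors bind sites that hold GAAANNGAA. These letters, on either strand, stood in 4 Rab windows, 6.35%, and in 7.37% of all windows. They are shown in capitals with their surroundings, because they mark the Rab genes whose promoters have the letters of such a site. In Rab19 there are 2 overlapping matches at the start itself (chr6:39381330-39381372, plus strand), and the other matches begin at positions -189, -190 and -231 from it in Rab20 (chr8:11478807-11478843, minus strand), Rab40b (chr11:121388419-121388455, minus strand) and Rabl2 (chr15:89592132-89592168, minus strand):
Rab19: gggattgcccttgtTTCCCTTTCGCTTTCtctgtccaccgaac
Rab20: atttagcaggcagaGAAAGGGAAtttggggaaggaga
Rab40b: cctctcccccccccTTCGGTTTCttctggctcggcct
Rabl2: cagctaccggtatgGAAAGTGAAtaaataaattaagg

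The log2 ratios of these 4 genes were 0.13 for Rab19, 0.12 for Rab20, 0.04 for Rab40b and 0.44 for Rabl2. All were above 0, as were 54.1% of all genes above background, and 3 of the 4 were within the scatter of a single probe set. The core of the CLEAR element, TCACGTGA, which reads the same on both strands and is the site of the lysosomal regulator TFEB, stood in 3 Rab windows, 4.76%, and in 1.37% of all. These belong to Rab5a (chr17:53479124-53479159, plus strand), Rab21 (chr10:115315601-115315636, minus strand) and Rab24 (chr13:55321958-55321993, minus strand), with the core in capitals:
Rab5a: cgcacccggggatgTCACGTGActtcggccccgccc
Rab21: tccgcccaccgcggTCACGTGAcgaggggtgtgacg
Rab24: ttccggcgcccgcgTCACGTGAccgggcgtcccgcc

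By their brightest probe sets their log2 ratios were -0.14 for Rab5a, -0.09 for Rab21 and -0.04 for Rab24, all within the scatter. The second probe set of Rab21 read 8.88 and 9.28, a ratio of 0.40 beyond the scatter and of opposite sign.

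The Rab genes of the early endosome and the young phagosome showed no difference of 1.5-fold. All 8 were above background, with log2 ratios from -0.14 to 0.39 and a median of -0.04. Rab5a, which drives fusion of early endosomes, had signals of 12.59 on the control siRNA array and 12.46 on the HDAC9 siRNA array. Its close relative Rab5c had 11.86 and 11.80, a ratio of -0.06. For Rab5b the brightest probe set gave 7.18 and 7.39 (0.21), while the second gave 7.46 and 6.89 (-0.57), so the sign of Rab5b depended on the probe set.

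By their brightest probe sets, the other genes of this group except Rab17 were as close. Rab20, which is induced by interferon-gamma in macrophages and acts on phagosome maturation, had 9.67 and 9.79. Rab31, which works between the trans-Golgi network and endosomes, had 12.15 and 12.05. Rab21, a regulator of integrin traffic, had a ratio of -0.09, with 0.40 by its second probe set, and Rab22a, of endosomal recycling, -0.01. By the brightest probe set, the one member of this group beyond the scatter was Rab17, known from transcytosis in epithelial cells. After loess Rab17 was within it (0.22). Its signals were 6.70 and 7.09, a ratio of 0.39 close to background, and its other probe set gave 0.06 as a bound. All 5 epithelial markers were below background on the control siRNA array, and 3 of them were above it on the HDAC9 siRNA array (Elf3 at 7.38, Epcam at 6.69 and Cldn4 at 6.39). Their part in the Rab17 value was not tested.

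Recycling endosome genes included the Rab gene with the largest difference. Rab4a, which returns internalised receptors quickly to the surface, had 8.40 on the control siRNA array and 7.64 on the HDAC9 siRNA array, a log2 ratio of -0.76 (1.70-fold lower). Its second probe set gave 7.80 and 7.43, a ratio of -0.36 in the same direction and short of 1.5-fold. The first of these has a name ending in _s_at, which marks probes shared by several transcripts, and the second does not. The paralogue Rab4b had 10.77 and 10.74, a ratio of -0.02.

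The remaining recycling genes above background stayed within the scatter by their brightest probe sets. Rab11a and Rab11b, the central Rab proteins of the recycling endosome, had ratios of -0.02 and -0.01. Rab14, which acts between endosomes and the Golgi and on phagosomes, had 14.07 and 14.02, with 7 probe sets from -0.09 to 0.45. Rab35, of a fast recycling route and of phagocytosis, had 0.15, and Rab15 had 0.18. Rab25, a relative of Rab11 that is mainly epithelial, was below background on both arrays.

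Late endosomal and lysosomal Rab genes differed little. Of 9 genes, 8 were above background, 7 with a ratio below 0 and 1 above it, and the median was -0.06. The 7 lay among the genes of highest signal, of which 61.3% were below 0, and Rab9 was above 0 after loess (0.0081) and quantile normalization (0.014). Rab7, which directs late endosomes and phagosomes to fuse with lysosomes, had 13.63 on the control siRNA array and 13.55 on the HDAC9 siRNA array. Rab7b, described in traffic of Toll-like receptors in macrophages, had 12.82 and 12.69. Rab9, which returns mannose 6-phosphate receptors to the Golgi, had 12.01 and 11.97.

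Rab32 and Rab38 serve lysosome-related organelles such as melanosomes. Rab32 had 11.76 and 11.62, a ratio of -0.13. Rab38 was close to background at 6.55 and 6.86 (0.31), and its second probe set, below background on the control siRNA array, gave 0.77 as a bound. Rab29, which recruits the kinase LRRK2 to membranes, had -0.11, Rab34, which positions lysosomes, -0.04, and Rab24, linked to autophagy, -0.04. None of these except Rab38 was beyond the scatter, and Rab38 was within it after loess (0.16).

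Of 15 Rab genes of the endoplasmic reticulum, Golgi and early secretory route, 12 were above background, with a median ratio of -0.07. Rab1a, required for transport from the endoplasmic reticulum to the Golgi, had 14.19 and 14.10, and Rab1b had 10.78 and 10.76. Rab2a, of the same route, had 12.54 and 12.37, and Rab6a, of retrograde Golgi transport, had 11.86 and 11.77. None of these 4 genes differed by more than the scatter by its brightest probe set. Rab18, of lipid droplets, had -0.05, Rab33b, which binds the autophagy protein ATG16L1, -0.21, and Rab43 0.09. Rab19 had 0.13, Rab36 0.17, Rab2b -0.11 and Rab6b, best known from neurons, 0.22.

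The Golgi gene Rab30 was the exception in this group by the brightest probe set, and only as a bound. It had 6.85 with control siRNA and 5.63, under the background, with HDAC9 siRNA, which puts its ratio at -0.51, or at least 1.43-fold lower. By the other probe set, too, it was above background with control siRNA and below it with HDAC9 siRNA, at 6.60 and 5.23, a bound of -0.26. The deposited signals, without raising to background, differed by -1.22 for the first probe set. Rab33a, Rab39 and Rab39b were below background on both arrays.

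Rab genes of exocytosis and secretory granules numbered 14, of which 9 were above background. Rab8a and Rab8b, of transport from the Golgi to the plasma membrane, had ratios of -0.11 and -0.13, and Rab10, which in macrophages brings Toll-like receptor 4 to the surface, had -0.05. Rab12 had 0.15. Rab13, known from cell junctions, was beyond the scatter at 8.80 and 8.41, a ratio of -0.40 from its single probe set. Rab27a and Rab27b, of lysosome-related granules and exosome release, were near background. Rab27a had 6.27, below background, and 6.56. Rab27b had 7.22 and 7.57 (0.34), beyond the scatter but within it after loess (0.23).

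The regulators of synaptic and granule exocytosis Rab3a and Rab3d had ratios of -0.01 and -0.0031. For Rab3a the second probe set, below background on the control siRNA array, gave 0.82 as a bound. Rab3b, Rab3c, Rab26, Rab37 and Rab44 were below background on both arrays.

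Of the cilium genes, all 3 were beyond the scatter, as were 34.3% of all genes, with 2 lower and 1 higher. Rab23, a negative regulator of hedgehog signalling, had 8.55 and 8.19 (-0.36), with other probe sets at -0.27 and 0.38. Rab28 had 10.98 and 10.66 (-0.32) and -0.16 by its second probe set. Rabl2, which acts in intraflagellar transport, had 7.89 and 8.32, the highest ratio of the family at 0.44, from 1 probe set.

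Among the remaining genes, Rab42 had 7.10 on the control siRNA array and 6.44, barely above background, on the HDAC9 siRNA array. This ratio of -0.67 (1.59-fold lower) came from the single probe set of the gene, so it has no second reading. Rab40b and Rab40c, which act as parts of ubiquitin ligases, had 0.04 and 0.07, Rabl3 had -0.03 and Rabl6 0.06. The 2 genes past 1.5-fold were thus in different groups of this description, and both were dim.

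**Figure D2:**
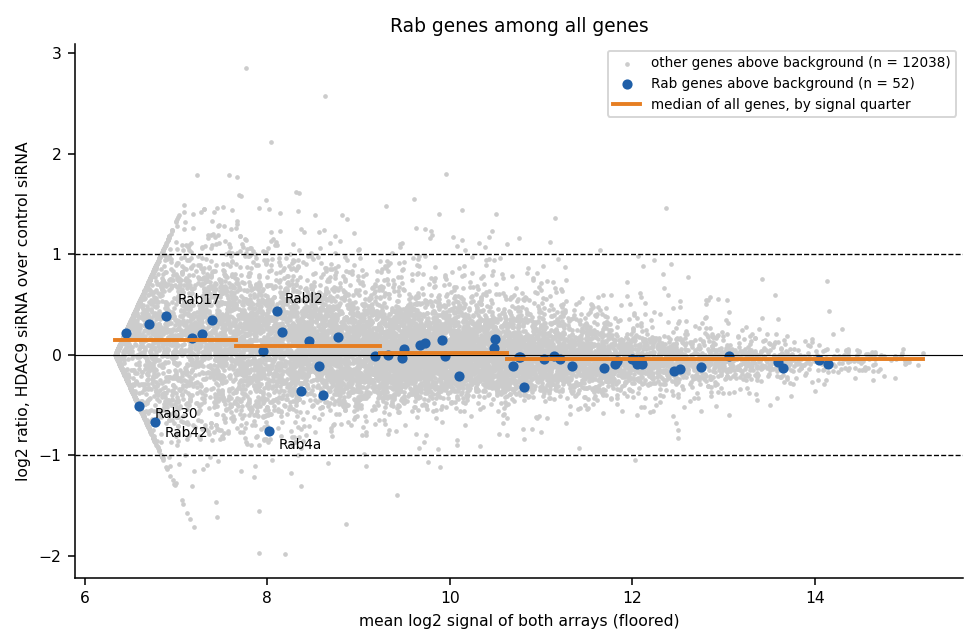
Log2 ratio, HDAC9 siRNA to control (vertical), against the mean log2 signal of both arrays (horizontal) for 52 Rab genes (blue) and the other genes above background (grey); dashed lines mark 2-fold and orange lines the median of all genes in each class of signal. No Rab gene reaches a dashed line, and the 24 Rab genes of the brightest class lie between -0.32 (Rab28) and -0.01, in a class where the median of all genes is -0.04.

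The Rab genes were also described by signal strength. When all genes above background were split into 4 equal classes by mean signal, 24 of the 52 Rab genes were in the brightest class, 10 in each of the next 2 and 8 in the dimmest. All 24 bright Rab genes had a ratio below 0, from -0.32 to -0.01, with a median of -0.08. In the same class 61.3% of all 3023 genes were below 0, with a median of -0.04. After loess on mean signal 19 of the 24 were below 0 and 5 above, with a median of -0.02, and 50.4% of all genes of the class were below 0, with a median of -0.0018. After quantile normalization 18 were below 0 and 6 above, with a median of -0.04, and 52.0% of all genes were below 0, with a median of -0.0066. The median of the bright Rab genes was thus below that of all genes of the class under each of these scalings, with no test of that difference.

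Dim Rab genes spread more widely, as did dim genes in general. In the dimmest class the 8 Rab genes ran from -0.67 to 0.39 with a median of 0.22. All genes there had a median of 0.15, and 22.1% of them were at least 1.5-fold different. In the next class the 10 Rab genes ran from -0.76 to 0.44 with a median of 0.01. All genes there had a median of 0.08, and the share of them past 1.5-fold was 12.9%. In the brightest class that share was 2.08%, and no Rab gene was past it. Rab42 belonged to the dimmest class and Rab4a to the next.

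**Figure D3:**
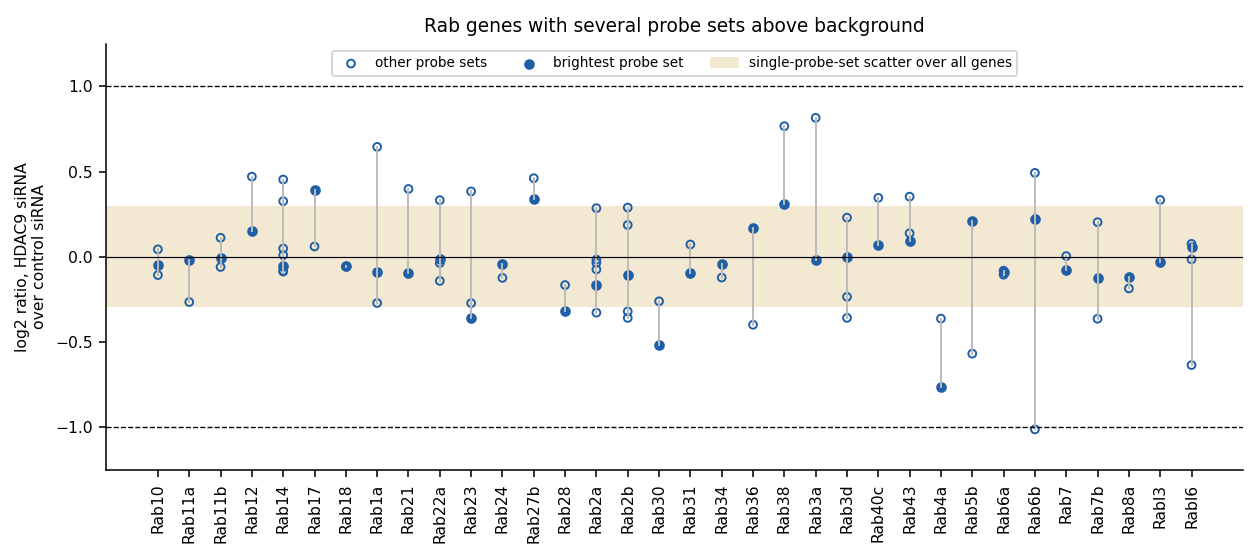
Log2 ratio, HDAC9 siRNA to control, for each probe set above background of the 34 Rab genes that have several; filled points are the brightest probe set, open points the others, the band is the single-probe-set scatter of 0.29 over all genes, and dashed lines mark 2-fold. The brightest probe sets cluster near 0, and the widest spread within a gene is that of Rab6b, from -1.01 to 0.49.

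The different probe sets of a gene give a second reading of each difference. In the 34 Rab genes that had more than 1 probe set above background, the 2 brightest had the same sign in 25 (73.5%), compared with 61.2% of all 5671 such genes. The scatter of a single probe set within the Rab genes was 0.23. Neither value is matched by signal to all genes, and 24 of the 52 Rab genes were in the brightest class. In 8 genes, probe sets above background had opposite signs and lay at least 0.6 apart. They were Rab1a, Rab2a, Rab2b, Rab3a, Rab5b, Rab6b, Rab23 and Rabl6.

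The sizes of these disagreements varied. For Rab1a, a probe set at 6.74 and 7.38 gave 0.65 beside -0.09 for the brightest. For Rab6b, a probe set at 7.35 and, below background, 6.21 gave a bound of -1.01 beside 0.22. It was the only 1 of 112 Rab probe sets above background that was past 2-fold, compared with 1.95% of all such probe sets on the arrays. Rabl6 had a probe set at -0.63 beside 0.06, and the ratios of Rab2a and Rab2b ran from -0.33 to 0.29 and from -0.36 to 0.29. Smaller gaps also took a second probe set beyond the scatter where the brightest was within it. Rab12 had 0.47 beside 0.15, Rab36 -0.40 beside 0.17 and Rab21 0.40 beside -0.09. Rabl3 had 0.33 beside -0.03, Rab7b -0.36 beside -0.13 and Rab40c 0.35 beside 0.07. Dimmer probe sets than the second were also beyond it for Rab14 (up to 0.45), Rab22a (0.33), Rab43 (0.35) and Rab3d (-0.36). Whether these probe sets read different transcripts of the gene was not tested.

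**Figure D4:**
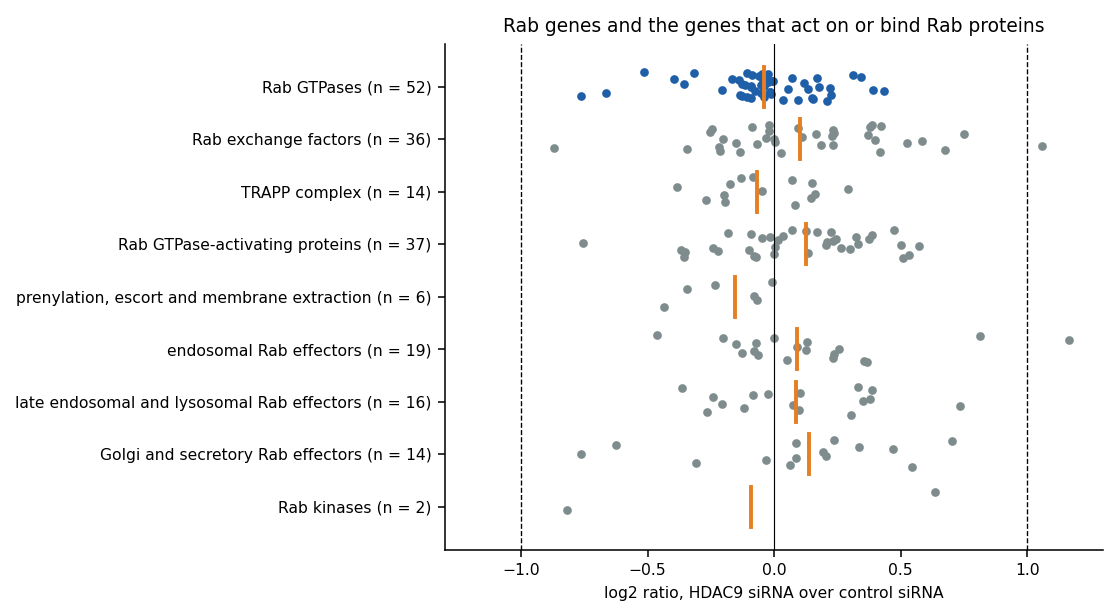
Log2 ratio, HDAC9 siRNA to control (horizontal), for the 52 Rab genes above background (blue) and for genes that act on or bind Rab proteins (grey, one line per list, n in the labels); orange bars are list medians and dashed lines mark 2-fold. Only Dennd6b among the exchange factors and Rab11fip1 among the endosomal effectors lie past a dashed line.

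The genes that switch, carry or read Rab proteins were measured on the same arrays. Of 144 such genes above background, 2 (Dennd6b and Rab11fip1) were past 2-fold, both higher with HDAC9 siRNA, and the median ratio was 0.07. Of all genes above background, 1.81% were past 2-fold, so this count is near the background. At 1.5-fold, 9 were higher and 5 lower, also near the 7.8% and 2.79% of all genes. Both genes past 2-fold were near background on the control siRNA array.

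Among 36 exchange factors, which load GTP onto Rab proteins, the median was 0.10. Dennd6b, a relative of the Rab14 exchange factor gene Dennd6a, had 6.41 on the control siRNA array and 7.47 on the HDAC9 siRNA array, a ratio of 1.06 (2.08-fold higher). A second probe set gave 6.36 and, below background, 6.02, a bound of -0.02, so the 2 probe sets did not show the same difference. Of 14 genes for the TRAPP complexes, exchange factors of Rab1 and Rab11, 0 were past 1.5-fold and the median was -0.07. The largest differences were those of Trappc6b (-0.38), Trappc12 (0.29), Trappc11 (-0.27) and Trappc2 (-0.20).

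Of 37 GTPase-activating protein genes, 0 were past 2-fold and the median was 0.13, with 23 above 0 and 14 below. Tbc1d25, which acts on Rab33b in autophagy, had 7.95 and 7.20 (-0.76). Tbc1d9 had 0.57, Tbc1d4, the Akt substrate that controls glucose transporter traffic through Rab10, 0.53 and Tbc1d22a 0.51. All 6 genes for prenylation, escort and membrane extraction had ratios below 0, as did 45.9% of all genes, with a median of -0.16. One of them, Rabggta, was at -0.0081, and all 6 were also below 0 after loess and after quantile normalization. They were led by the Rab escort protein genes Chml (-0.44) and Chm (-0.34), followed by Rabac1 (-0.23) and the dissociation inhibitor gene Gdi2, at 13.66 and 13.58 (-0.08).

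Of 19 genes for endosomal effectors, 1 was past 2-fold. Rab11fip1, which links Rab11 to recycling vesicles, was below background on the control siRNA array at 6.16 and had 7.50 on the HDAC9 siRNA array, at least 2.24-fold higher. Its second probe set, at 6.26 and 6.62, gave a bound of 0.28. The median of this list was 0.09.

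Of 16 late endosomal and lysosomal effector genes, 0 were past 2-fold and the median was 0.09. Wdr91, a Rab7 effector that acts in the switch from early to late endosomes, had 10.70 and 11.43 (0.73). Plekhm2 and Rubcn both had 0.38, and Fyco1, which couples Rab7 to outward movement of vesicles, had -0.36. Of 14 Golgi and secretory effector genes, 0 were past 2-fold and the median was 0.14. The phosphatase gene Ocrl had 8.65 and 7.88 (-0.76), Micall2 had 0.70, Sytl2 a bound of -0.63 and Rph3a 0.54.

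The 2 listed kinases that phosphorylate Rab proteins, Lrrk1 and Lrrk2, had ratios of opposite sign. Lrrk2 had 8.71 on the control siRNA array and 7.89 on the HDAC9 siRNA array, a ratio of -0.82 (1.76-fold lower) from its single probe set. Lrrk1 had 8.86 and 9.50, a ratio of 0.63, and 0.32 by its second probe set. Some of the Rab genes whose proteins LRRK2 is known to phosphorylate had ratios of -0.11 (Rab8a), -0.05 (Rab10), 0.15 (Rab12) and -0.11 (Rab29). This is not a full list of such genes.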

How the data were processed

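Signals of 45037 probe sets were measured on 2 Affymetrix expression arrays, 1 per group. The deposited values are log2 signals, condensed per probe set with MAS5 per the submitters' processing notes; the sources used here name no version or settings. The deposited scaling was kept, since the mean linear signal without the top and bottom 2% of probe sets was 497 on both arrays. Probe sets with 1 gene symbol (34945) were used, and those with several (932) or none (9160) were not; 34741 matched a RefSeq gene table of GRCm38.p6 by gene identifier, and 0 symbols changed. Linear signals below background (95th percentile of 80 receptor probe sets, linear 81.0) were raised to it, and log2 ratios of HDAC9 siRNA over control siRNA were taken; a ratio with 1 raised signal is a bound. No test, error between samples or p-value exists with 1 array per group, and this number limits the precision. The steps were tested on simulated data (Python 3.11.15, numpy 2.4.6, pandas 2.3.3, statsmodels 0.14.6).

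The members, gene lists, roles and thresholds were chosen with earlier results of these data known, and the 5 promoter motifs were picked after the ratios and a wider motif search were seen. Every Rab gene could be named, with both signals for those past 1.5-fold or with opposed probe sets; of each list, the genes past 2-fold were named, or otherwise up to 4 with the largest ratios. Both LRRK2-related comparisons and the promoter genes were chosen after their values were seen. Alternatives were median-centring, quantile normalization, loess (span 0.3), floors at percentiles 75 and 99 or none with a pseudocount of 1, the median over probe sets, leaving out the suffixes _s_at, _x_at and _a_at, thresholds of 1.5-fold and 3-fold, and, added after seeing the data, genes above background on both arrays. Planned features of the proteins were not analysed here.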

Additional observations from a re-analysis of the deposited data

How the results depend on the processing

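No paired analysis was possible because each group has 1 array. With the floor at percentile 75, 1 of 59 Rab genes was past 2-fold (Rab30, -1.22), and with no floor 5 of 62 were, 4 lower (Rab25, Rab30, Rab3b and Rab9b) and 1 higher (Rab3c), beside 6.06% and 20.4% of all genes. At 1.5-fold the count was 2, and under the other 8 alternatives, 3-fold included, it was 0. The median ratio of the Rab genes ran from -0.07 (centred) to -0.01 (loess), negative under each alternative. It moved from its main value of -0.04 by less than 0.04, the single-probe-set scatter divided by the square root of 52. This yardstick treats the genes as independent and leaves out any difference between cultures, so it is not an error of the median. Of 412 alternative values of single Rab genes, 401 stayed within the scatter and 11, of 7 genes, moved by more: 7 upward and 4 downward. Many of the 412 could not move, since a changed floor leaves signals above it as they were. The sign changed in 21 of the 412. Rab4a was at -0.36 once suffixes _s_at, _x_at and _a_at were left out. With the floor at percentile 99 Rab42 was at -0.18 and Rab30 and Rab38 at 0.00, since their signals then lay at or near the floor. Rab3a was at 0.40 and Rab5b at -0.18 by the median over probe sets. Regulator and effector genes past 2-fold numbered 8 (floor at percentile 75), 0 (percentile 99), 12 (no floor), 1 (quantile), 1 (loess: Dennd2c at -1.04, with Dennd6b at 0.89), 0 (median over probe sets), 1 (without those suffixes), 14 (1.5-fold), 0 (3-fold) and 1 (above background on both arrays). Hdac9 was at -1.19, 0.00 and -1.18 with the floor at percentile 75, at 99 and absent. Same-sign pairs of probe sets numbered 27 of 37, 21 of 30 and 29 of 40 under these 3 floors. Low signal over background limits Rab42, Rab30, Rab38, Rab17, Rab27a, Dennd6b and Rab11fip1. The causes of these shifts were not tested beyond what the floor itself sets.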

Other observations

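The 10 Rab genes below background on both arrays have deposited signals that carry no ratio, and 4 of them differed by more than 1 log2 unit there. Rab3c, of synaptic vesicle exocytosis in neurons, had 0.96 on the control siRNA array and 4.91 on the HDAC9 siRNA array. Rab3b had 6.04 and 3.77, the epithelial gene Rab25 had 5.90 and 3.92, and Rab9b had 5.58 and 3.71. The other 6 were Rab26 (3.47 and 2.86), Rab33a (5.32 and 6.13), Rab37 (5.93 and 5.45), Rab39 (5.76 and 5.96), Rab39b (5.91 and 6.01) and Rab44 (2.08 and 2.25).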
